A study of Mus musculus with 81 samples.

Results

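The stromal cells of the embryonic mouse pancreas were ordered by how much transcript of immediate early genes each one held, and the cells at the high and low ends of that order were compared. The set comprised 40 of the 81 cells of the series: 20 immediate-early-high and 20 immediate-early-low cells, from 62 stromal cells. A stromal cell had Col3a1, a fibrillar collagen transcript, at 10 RPKM or more (reads scaled by transcript length and by library size) and Epcam, Chga, Tyrobp and Emcn each under 10 RPKM. Those 4 genes mark epithelial, endocrine, leukocyte and endothelial cells, and 4 shallow libraries (C3, C43, C61 and C94) were left out. The score of a cell was the mean log2(RPKM + 1) of Fos, Fosb, Jun, Junb, Egr1, Ier2, Klf4, Zfp36, Atf3 and Dusp1. Because the score chose the cells, the values of these 10 genes describe the choice and support nothing else.

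Every cell was taken from the pancreas of a wild-type CD1 embryo at embryonic day 13.5, with no treatment, allele or transgene that sets one cell apart from another. The tissue was made into a suspension with trypsin, and individual cells were caught in a microfluidic chip and turned into 1 full-length cDNA library each. The labels name no animal and give 1 group, so all cells count as 1 sample. No test was possible between the high and low cells, every SD is a spread over cells, and a difference is a description of these cells.

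Immediate early genes are transcribed within minutes of a signal such as a growth factor, without prior synthesis of new protein. Many encode transcription factors. FOS and JUN family proteins pair to form AP-1, EGR1 is a zinc finger factor, and DUSP1 and ZFP36 switch the response off by removing phosphates from MAP kinases and by promoting decay of AU-rich mRNAs. The same genes are known to respond to enzymatic dissociation of tissue. No undissociated sample was used here, so transcript present in the tissue and transcript made during dissociation cannot be told apart.

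The stromal label was checked against its markers. Of the 62 stromal cells, Col1a2 reached 10 RPKM in 61, Vim in 61, Col1a1 in 46, the PDGF receptor gene Pdgfrb in 45 and the visceral mesenchyme factor Tcf21 in 32, while Dcn did so in 8 and Lum in 4. Col3a1, which the rule used, had a median of 111.1 RPKM in the high and 115.5 RPKM in the low cells. Among markers the rule did not use, Col1a2 had medians of 181.6 and 178.1 RPKM, Col1a1 of 33.2 and 14.5, Pdgfrb of 38.9 and 19.3, Tcf21 of 13.9 and 8.35, and Pdgfra of 4.45 and 10.2. Col1a2 was thus close between the groups, whereas the median of Col1a1, Pdgfrb and Tcf21 was higher in the high cells and that of Pdgfra in the low cells. Libraries held an estimated median of 3.49M reads in the high cells (2.33M to 4.88M) and 3.78M in the low cells (2.52M to 4.96M). Genes at 1 RPKM or more numbered 4036 (3217 to 5110) and 3904 (2594 to 4714) at the median. Over the 62 cells, which differ in depth, the score had a Pearson r of 0.14 with the number of genes at 1 RPKM and 0.10 with log10 of the reads. No pair of library indices was shared between any of the 81 cells.

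The score formed a continuous range. It was 4.81 to 6.14 in the high cells (median 5.16), 3.78 to 4.78 in the 22 cells between (median 4.34) and 0.49 to 3.54 in the low cells (median 3.02). The limits fell between close values: C76 was the last high cell at 4.81 and C49 stood just outside at 4.78, while C96 at 3.78 and C71 at 3.54 lay on either side of the lower limit. The low group was the wider one, with an SD of 0.83 against 0.34, and its lowest cell, C35, was at 0.49. High and low cells were spread evenly over the 2 sets of first indices in the labels, with 9 of each among cells 1 to 48 and 11 of each among cells 49 to 96. They were less even over the 8 sets of second indices, which are rows of the plate: row E held 6 high and 1 low cell, and row A held 0 high and 3 low cells. Single columns of the plate were uneven too. Column 8 held 0 high and 3 low cells (C11, C35 and C41) of 4 stromal cells, with a median score of 1.98. Column 5 held 2 high and 4 low cells, and columns 4 and 6 each held 2 high and 0 low cells. The part of plate position in the score was not tested.

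Egr1 and Fos were the most abundant of the 10 score transcripts. Egr1 was at 113.2 to 2408 RPKM in the high cells (median 1208) and 1.91 to 967.6 RPKM in the low cells (median 404.8). Fos was at 38.6 to 1301 RPKM in the high cells (median 597.9) and 1.43 to 471.6 RPKM in the low cells (median 142.2). The ranges of both genes overlapped, and even in the low group Fos reached 10 RPKM in 19 of 20 cells and Egr1 in 16 of 20. The low cells were thus not free of immediate early transcript. The other 4 low cells, C11, C35, C41 and C52, had Egr1 at 1.91 to 2.83 RPKM, and C35 also had the fewest genes of the group, 2594, and Vim at 2.24 RPKM.

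The 2 negative regulators and Klf4 had the largest differences in mean log2(RPKM + 1) of the 10 score genes. Dusp1 had a median of 88.6 RPKM in the high, 60.6 RPKM in the middle and 0.36 RPKM in the low cells, and reached 10 RPKM in 16 of 20 high and 3 of 20 low cells. Zfp36 had medians of 47.1, 9.83 and 0.23 RPKM in the same order, and Klf4, a zinc finger factor gene, of 68.6, 14.6 and 0.26 RPKM. In the middle cells Dusp1 stood near its high level, whereas Zfp36 and Klf4 lay between. Ier2 followed yet another order, with a median of 60.3 RPKM in the high cells and 5.43 and 4.46 RPKM in the middle and low cells. Fosb had medians of 35, 20.2 and 2.48 RPKM and Jun of 37.1, 26.1 and 3.02 RPKM. Like Dusp1, Fosb reached 10 RPKM in 16 of 20 high and 3 of 20 low cells.

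Junb and Atf3 contributed little to the order. Junb had a median of 0.80 RPKM in the high and 0.24 RPKM in the low cells. Atf3, a stress-induced factor gene of the ATF family, was above 0 in 7 high and 6 low cells, and its highest value was 234.7 RPKM among the high and 136.5 RPKM among the low cells. The mean log2(RPKM + 1), high minus low, differed by 4.22 for Dusp1, 3.54 for Klf4, 3.28 for Zfp36, 2.95 for Fosb, 2.91 for Jun, 2.60 for Egr1, 2.46 for Ier2, 1.96 for Fos, 0.66 for Atf3 and 0.49 for Junb.

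**Figure D1:**
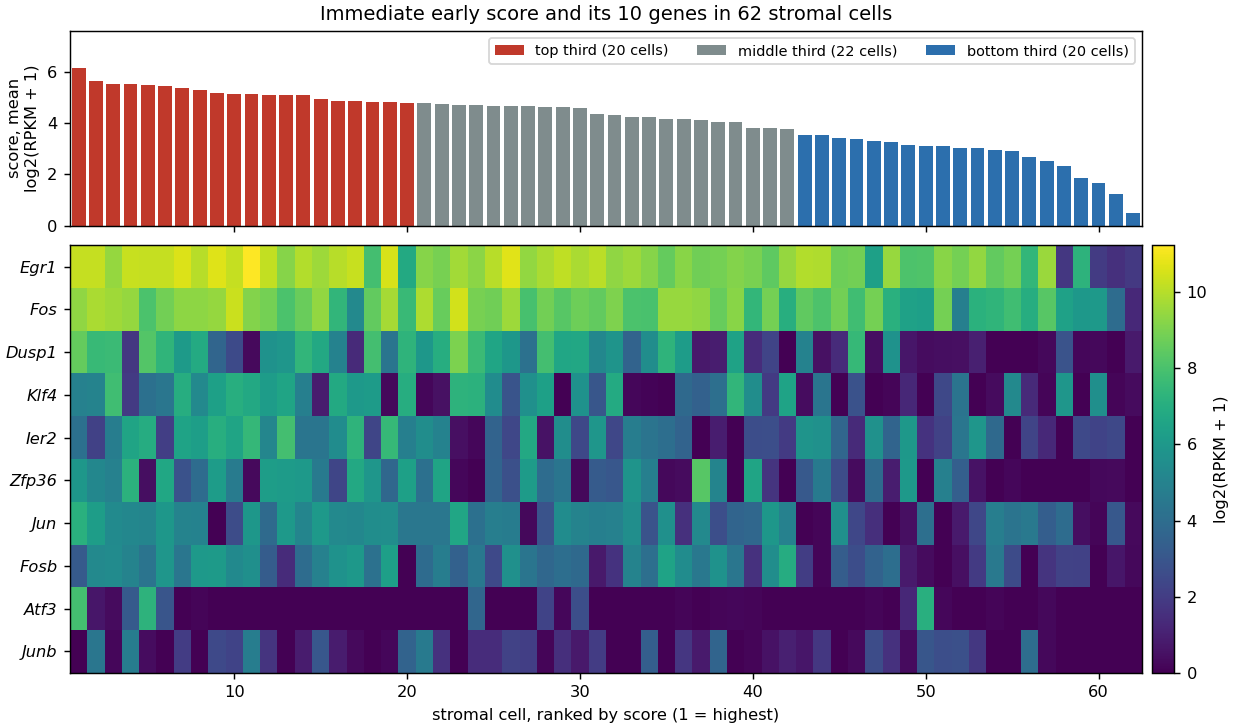
Score of each of the 62 stromal cells (bars, mean log2(RPKM + 1); red high, grey middle, blue low) above the level of the 10 score genes in the same cells (colour, log2(RPKM + 1)), from the highest score at the left to the lowest at the right. Fos and Egr1 stay high through most cells, Dusp1 and Zfp36 are near 0 in most low cells, and Junb and Atf3 are low in most cells throughout.

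The 10 genes varied together only in part. Over the 62 cells the Pearson r of a gene with the mean of the other 9 was 0.67 for Fos, 0.66 for Egr1, 0.49 for Dusp1, 0.48 for Fosb and 0.43 for Jun. It was 0.36 for Zfp36, 0.27 for Ier2, 0.25 for Klf4, 0.11 for Atf3 and 0.10 for Junb. Among the 45 pairs r had a median of 0.19 and was above 0 in 37, from −0.11 for Junb with Dusp1 to 0.68 for Fos with Egr1. All these pairs share the library and its depth.

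Splitting the score into its AP-1 and ATF genes (Fos, Fosb, Jun, Junb, Atf3) and its other 5 genes gave values for genes that the split had not used. When the 20 highest and 20 lowest cells were chosen by the AP-1 and ATF genes, Dusp1 was 3.22 higher in the high cells and Egr1 2.23 higher. Dusp1 had medians of 86.8 and 0.69 RPKM there, and Egr1 of 1048 and 487.2 RPKM. Klf4 differed by 1.02, Zfp36 by 0.72 and Ier2 by 0.70. When the cells were chosen by the other 5 genes, Fosb was 1.56 higher, Jun 1.5 and Fos 1.47, with Atf3 at 0.67 and Junb at 0.14. Only the difference of Dusp1 exceeded the SD over cells of both groups, and those of Egr1 and Fos exceeded the SD of the high cells alone. The 2 parts of the score had a Pearson r of 0.55 over the 62 cells. Fos, Fosb, Jun, Egr1, Dusp1 and Klf4 thus differed by more than 1 between cells chosen without them, and Zfp36, Ier2, Atf3 and Junb by less. Among the 12395 genes outside the score, 468 were higher and 451 lower by at least 1 with the AP-1 and ATF genes. With the other 5 genes, 583 were higher and 309 lower. The score genes were not tested against these counts.

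Outside the score genes, 12395 genes were above 0 in at least 3 stromal cells, and these were compared. A gene was called higher or lower where its mean log2(RPKM + 1) differed by at least 1 between the high and low cells. In all, 516 genes (4.16%) were higher and 413 (3.33%) lower in the high cells, and the median difference over all 12395 was 0.01. Of these, 472 of the 516 and 372 of the 413 had the same sign in cells 1 to 48 and in cells 49 to 96. The difference averages over the cells of both sets, so this agreement is in part set by the call and is not replication. Among the 5274 genes above 0 in at least 31 of the 62 stromal cells, 416 (7.89%) were higher and 299 (5.67%) lower. Counts for the gene groups below are read against these shares.

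Among immediate early genes outside the score, a part was higher in the high cells and the rest differed by less than 1. Of 50 such genes compared, 11 (22%, against 4.16% of all genes) were higher and 0 lower, and 39 had a difference above 0, against 51.6% of all genes. Their median difference was 0.25. They included matricellular genes (Cyr61, Thbs1), nuclear factors (Nr4a1, Klf6, Hes1, Srf, Id3) and regulators of growth and the cell cycle (Gadd45g, Ccnl1, Btg2, Plk2). Of the 24 members above 0 in at least 31 stromal cells, 10 were higher and 0 lower, with a median of 0.87.

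Cyr61 had the largest difference among genes detected in 10 or more of the 20 cells where they were higher, with 1 sign in both sets of cells. It encodes CCN1, a secreted matricellular protein that binds integrins, and it is a classical immediate early gene of fibroblasts. Cyr61 was at 47.2 to 1164 RPKM in the high cells (median 562.8), 18.5 to 794.7 RPKM in the middle cells (median 182.3) and 0.12 to 630.9 RPKM in the low cells (median 91.1). The groups overlapped, but all 20 high cells and 13 of the 20 low cells reached 10 RPKM. Its mean log2(RPKM + 1) was 8.76 ± 1.21 (SD over 20 cells) in the high and 5.54 ± 3.24 in the low cells, a difference of 3.21. It differed by 3.38 in cells 1 to 48 and 3.08 in cells 49 to 96, and by 2.29 without the 4 cells low in Egr1. Its neighbour in the CCN family, Ctgf, was above 0 in 7 high and 3 low cells and differed by 0.22, and is given here after its value was seen.

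Nr4a1, an orphan nuclear receptor gene induced by growth factors and stress, was above 0 in 16 of 20 high and 8 of 20 low cells. It was at 0 to 98.4 RPKM (median 5.65) in the high and 0 to 20.3 RPKM (median 0) in the low cells. The difference was 2.43, with 3.90 in cells 1 to 48 and 1.23 in cells 49 to 96. Its relatives were rarely detected: Nr4a2 was above 0 in 6 cells of each group and differed by 0.60, and Nr4a3 was above 0 in 2 stromal cells and was not compared.

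The remaining higher genes differed by 1.05 to 1.70. Thbs1, which encodes the matricellular protein thrombospondin-1, had medians of 9.06 RPKM in the high and 0.97 RPKM in the low cells and a difference of 1.70. Gadd45g, a growth arrest gene, was above 0 in 10 high and 5 low cells and differed by 1.66. Ccnl1, a cyclin of the splicing machinery, had medians of 46.7 and 27.1 RPKM and differed by 1.52. Hes1, a repressor downstream of Notch, was high in both groups, with medians of 110.8 and 58.4 RPKM and a difference of 1.16. Klf6 differed by 1.25, Srf, the serum response factor, by 1.09 and Id3, a BMP target, by 1.05. Btg2 at 1.37 and Plk2 at 1.18 complete the count and were named for that reason.

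Several immediate early factors did not differ by 1. Egr2 differed by 0.54, and Egr3 and Egr4, by 0.10 and −0.05, were above 0 in 7 and 8 stromal cells. Klf2, Klf9 and Klf10 differed by 0.28, 0.62 and 0.26. Myc, the growth regulator, differed by 0.11, made of 1.83 in cells 1 to 48 and −1.31 in cells 49 to 96. Tsc22d1 was abundant in both groups, with medians of 53.8 RPKM in the high and 96.7 RPKM in the low cells, and differed by −0.05. The list was therefore not uniformly higher, and the members that were higher do several unlike things.

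**Figure D2:**
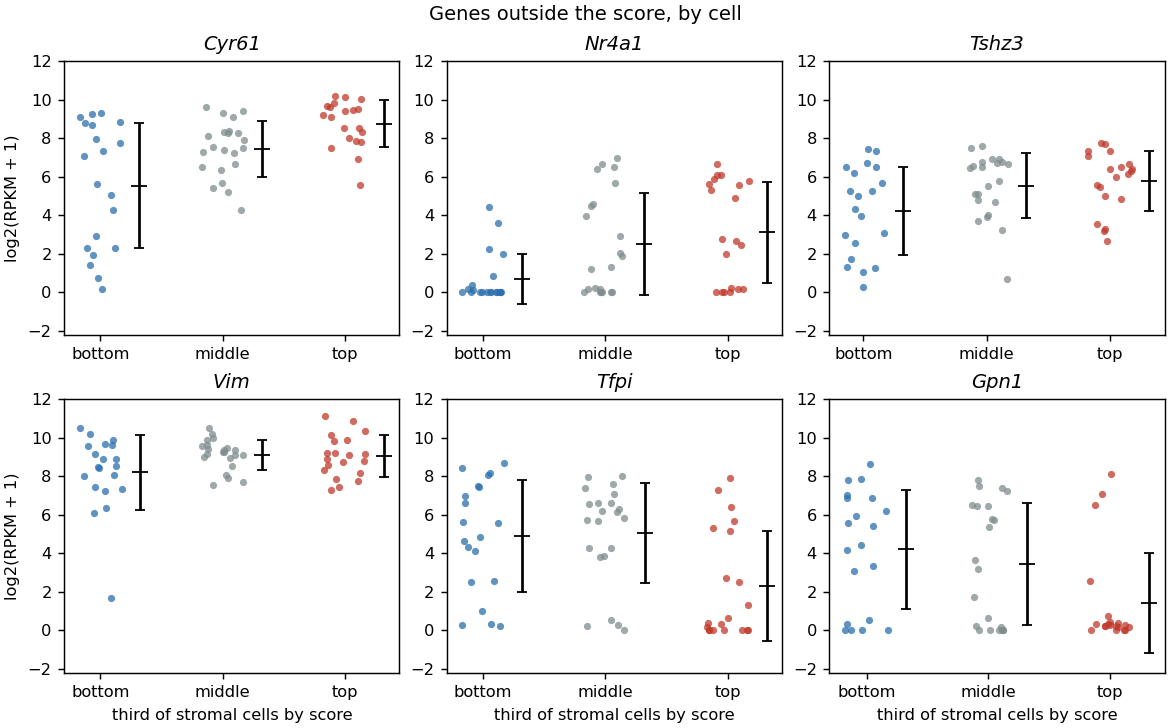
Level of 6 genes outside the score in single cells, as log2(RPKM + 1), in the low (bottom), middle and high (top) stromal cells; each point is a cell and the bar is the mean with its SD over cells. Cyr61 has means of 8.76 and 5.54 in the high and low cells, Tfpi and Gpn1 are higher in the low cells, and the points of the groups overlap for every gene.

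Among genes of other AP-1 proteins, none of the 7 compared was higher or lower by 1, and their median difference was 0.08. Jund, the JUN family member with the steadiest expression, differed by 0.78 (medians of 2.07 and 0.35 RPKM) and Fosl2 by 0.66 (3.18 and 0.34 RPKM). The small MAF genes Maff and Mafk, at 0.09 and 0.08, and the repressor gene Jdp2, at −0.10, were mostly at 0. Mafg differed by −0.74. Fosl1, Batf and Batf3 were above 0 in fewer than 3 stromal cells and were not compared.

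The count of higher immediate early genes was not the same in the 2 sets of first indices; the difference between the sets was not tested. In cells 1 to 48, where 12.1% of all genes passed a difference of 1 upward and 7.9% downward, 15 of the 50 immediate early genes were higher, with 0 lower, with a median of 0.49. In cells 49 to 96, where the shares were 7.62% and 9.12%, 5 were higher and 2 lower, with a median of 0.19. Among the 24 broadly detected members the counts were 12 higher (19.1% of all such genes) and 0 lower (11%) in cells 1 to 48, and 4 higher (12.6%) and 1 lower (15%) in cells 49 to 96. In cells 49 to 96 the share of higher members was thus near the background. Of the 50 genes, 25 had a difference above 0 in both sets, against 3038 of all 12395.

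**Figure D3:**
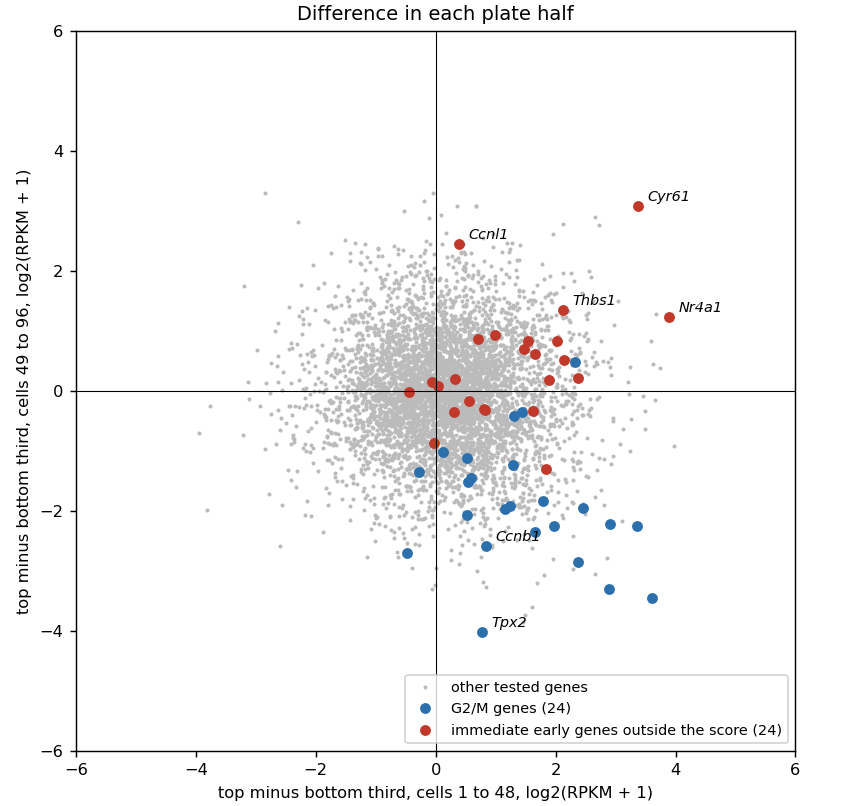
Difference in mean log2(RPKM + 1), high minus low cells, within cells 1 to 48 (horizontal axis) and within cells 49 to 96 (vertical axis), for genes above 0 in at least 31 stromal cells; red points are 24 immediate early genes outside the score and blue points 24 G2/M genes. Cyr61, at 3.38 and 3.08, lies far out on both axes, while most G2/M genes, such as Tpx2 at 0.77 and −4.03, lie to the right of 0 and below it.

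The promoters of the genes that lead the comparison are shown to place the binding letters of the known regulators beside the values. Immediate early promoters are known to be read by CREB and ATF proteins (TGACG, or TGACGTCA in full), AP-1 (TGANTCA), EGR proteins (GCGNGGGCG), serum response factor (CArG box) and, at the core, TATAAA. Each sequence is the 250 bases before the start site, from RefSeq on GRCm38.p6, 5′ to 3′ on the gene's strand, with capitals for TGACG or its complement CGTCA, TGACGTCA, GCGNGGGCG or its complement, and TATAAA. Fos and Dusp1 are score genes, and Cyr61 (named Ccn1 in RefSeq) and Nr4a1 are the 2 immediate early genes of largest difference outside the score. Their windows are chr12:85473640-85473889, plus strand, for Fos; chr17:26508473-26508722, minus strand, for Dusp1; chr3:145649986-145650235, minus strand, for Cyr61; and chr15:101266596-101266845, plus strand, for Nr4a1.
Fos: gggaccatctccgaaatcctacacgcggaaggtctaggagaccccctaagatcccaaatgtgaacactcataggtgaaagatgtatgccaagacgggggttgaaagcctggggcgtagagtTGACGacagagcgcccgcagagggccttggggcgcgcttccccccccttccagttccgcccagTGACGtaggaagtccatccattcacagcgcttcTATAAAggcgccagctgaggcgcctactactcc
Dusp1: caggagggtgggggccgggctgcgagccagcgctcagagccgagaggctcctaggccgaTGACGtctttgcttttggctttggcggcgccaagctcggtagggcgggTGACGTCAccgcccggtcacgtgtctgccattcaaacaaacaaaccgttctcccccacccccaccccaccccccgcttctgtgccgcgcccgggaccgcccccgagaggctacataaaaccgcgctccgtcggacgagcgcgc
Cyr61: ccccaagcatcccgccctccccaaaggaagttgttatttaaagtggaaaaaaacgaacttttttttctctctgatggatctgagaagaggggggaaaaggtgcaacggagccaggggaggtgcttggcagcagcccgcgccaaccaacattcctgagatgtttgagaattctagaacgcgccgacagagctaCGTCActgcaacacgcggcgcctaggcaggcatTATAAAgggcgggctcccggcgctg
Nr4a1: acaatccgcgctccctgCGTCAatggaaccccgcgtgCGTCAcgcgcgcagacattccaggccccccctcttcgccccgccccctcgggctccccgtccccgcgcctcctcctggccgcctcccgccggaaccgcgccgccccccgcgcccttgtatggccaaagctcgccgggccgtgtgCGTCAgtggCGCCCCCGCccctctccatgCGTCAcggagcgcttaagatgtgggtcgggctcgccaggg

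TGACG or its complement occurs in all 4 of these windows. Fos holds it at 2 places, the nearer one upstream of its TATAAA, and Dusp1 holds it once alone and again on both strands within TGACGTCA. Nr4a1 holds it at 4 places and Cyr61 at 1. Of the score genes, 8 had a RefSeq promoter, and 6 of these held TGACG on either strand, as did 23 of 41 immediate early genes outside the score, against 17.8% of 32851 promoter windows of the same length. The EGR letters were in 3 of 8 and 10 of 41 against 4.70%, and TATAAA in 1 of 8 and 7 of 41 against 12.4%. TGACGTCA was in 1 of 8 and 4 of 41 (1.55% of all), TGANTCA in 0 of 8 and 2 of 41 (6.75%), and the CArG box in 1 of 8 and 1 of 41 (1.47%). Both strands were searched, TGACGTCA contains TGACG, and a match describes the letters only. The windows were not matched for base content. TGACG did not follow the difference gene by gene. Of the genes named below for the largest differences toward the low cells, Qser1, Farsb, H2-Ke2 and Tssc1 held it and the others did not. The higher genes Klf6 and Gadd45g lacked it, while Egr4, Klf2 and Klf9, which did not differ by 1, held it. Egr1 and Ier2 had no entry, and sites farther upstream than 250 bases were not searched.

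Feedback and stress pathways were read against the same 4.16% of all genes higher and 3.33% lower. Of 11 ERK and p38 phosphatases and feedback inhibitors compared, 1 (9.09%) was higher and 0 lower, with a median of 0.66. The higher one was Dusp6, an ERK phosphatase, with medians of 23.3 RPKM in the high and 12.5 RPKM in the low cells and a difference of 1.23. The median of this list turned to −0.17 when cells were chosen by the AP-1 and ATF genes alone. Among 15 mRNA decay genes, Cnot7, a deadenylase subunit, was lower by 1 or more (−1.30) and 0 were higher. Of 13 NF-kB targets compared, 1 was higher, Csf1, a macrophage growth factor gene (1.38, above 0 in 12 high and 9 low cells).

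Chaperone genes included 2 of 18 (11.1%) that were higher and 0 lower, with a median of 0.29. The share was 4.16% over all genes and 7.89% over genes above 0 in at least 31 stromal cells. Cct2, a subunit of the cytosolic chaperonin, was at 38.7 to 600.9 RPKM in the high cells (median 194.5) and 0.18 to 536.7 RPKM in the low cells (median 79.5), a difference of 1.8. Hspa9, which encodes a mitochondrial chaperone, differed by 1.28. Of 18 genes of the unfolded protein response, Pdia4 (1.42) and Atf4 (1.39) were higher (11.1% of the list) and Xbp1 (−1.24) was lower (5.56%). Atf4 differed by 0.10 in cells 1 to 48 and 2.45 in cells 49 to 96. None of 11 p53 targets and none of 12 targets of the oxidative stress factor NRF2 was higher or lower by 1, with medians of −0.12 and 0.10.

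Genes of the cytoskeleton and of YAP signalling, which report on tension and spreading in fibroblasts, were also looked at. Of 17 SRF targets of the cytoskeleton, 1 (5.88%, against 4.16% of all genes) was higher, the calponin gene Cnn2 (1.34, medians of 44.6 and 17.2 RPKM). Of 11 YAP and TEAD targets, 2 (18.2%) were higher and 0 lower, with a median of 0.44 that ranged from 0.09 to 0.84 over the alternative settings. Axl, a receptor tyrosine kinase gene, had medians of 26.8 RPKM in the high and 1.06 RPKM in the low cells and a difference of 1.83. Amotl2, a YAP-binding protein gene, had medians of 26.6 and 1.18 RPKM and differed by 1.41, with 2.64 in cells 1 to 48 and 0.41 in cells 49 to 96.

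The genes that define stromal identity were counted next. Of 25 fibrillar collagen and matrix genes, 2 (8%) were higher and 2 (8%) lower, against 4.16% and 3.33% of all genes, with a median of 0.07. Mfap4, a microfibril gene, differed by 1.39 and Col6a1 by 1.26, while Fn1, which encodes fibronectin, differed by −1.26 and had medians of 0.03 and 0.11 RPKM. Postn, at −1.10, is named to complete the count. Col6a1 differed by −0.06 when cells were chosen by the score genes other than the AP-1 and ATF genes. None of 11 basement membrane genes differed by 1, and their median was −0.12.

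Among 25 transcription factors of visceral mesenchyme, 2 (8%, against 4.16% of all genes) were higher and 0 lower. Zeb2, a factor of the mesenchymal state, had medians of 13.8 RPKM in the high, 15.2 RPKM in the middle and 3.46 RPKM in the low cells, a difference of 1.35. Barx1, a regulator of stomach mesenchyme, differed by 1.10, with 0.33 in cells 1 to 48 and 1.74 in cells 49 to 96. Of 18 secreted signals of the FGF, Wnt, BMP and retinoid pathways, 0 were higher and Rspo3, an enhancer of Wnt signalling, was lower (−1.07).

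Of 15 contractile and pericyte genes, 3 were higher (20%) and 0 lower, although the median of the list was 0.02. The share was 4.16% over all genes and 7.89% over genes above 0 in at least 31 stromal cells. The 3 higher genes, Rgs5, Des and Kcnj8, were above 0 in 59, 48 and 30 stromal cells. Rgs5, a regulator of G protein signalling used as a pericyte marker, was at 0 to 593.3 RPKM in the high cells (median 134.1) and 0 to 475.0 RPKM in the low cells (median 44.8), but the middle cells had the highest median, 246.1 RPKM. Its difference was 1.66. Des, an intermediate filament gene, differed by 1.72 (medians of 5.32 and 0.24 RPKM) and Kcnj8, a potassium channel gene, by 1.07. The summed level of the 16 genes of this list overlapped between the groups, at 29.9 to 795.8 RPKM in the high cells and 27.5 to 677.1 RPKM in the low cells. The labels name no kinds of stromal cell, and the cells were not divided by kind here. Whether the groups differ in their mix of stromal cell kinds or in the level within 1 kind was not tested.

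**Figure D4:**
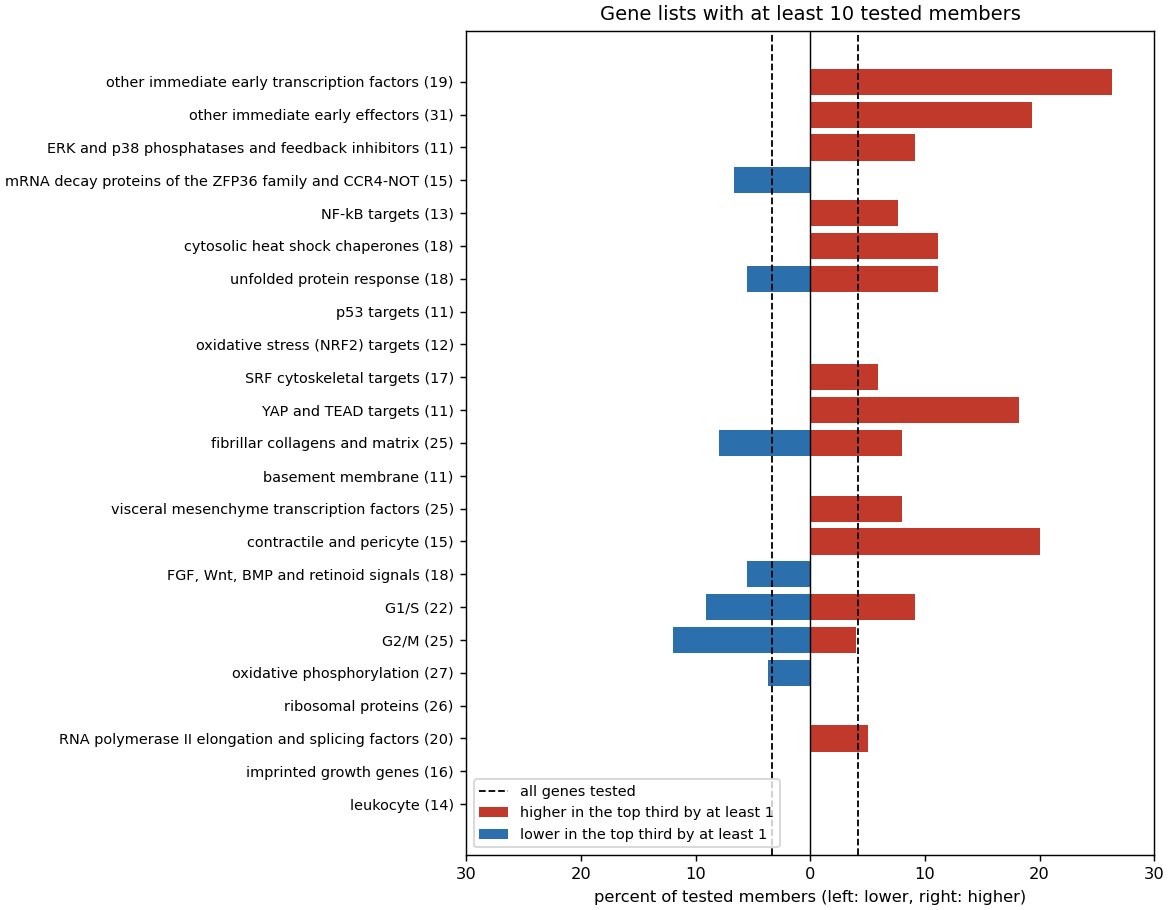
Percent of compared members that were higher (red, to the right) or lower (blue, to the left) in the high cells by at least 1 log2 unit, for gene lists with at least 10 compared members; the number of members is in brackets and the dashed lines mark all genes, 4.16% and 3.33%. The 2 immediate early lists have the longest bars to the right except for contractile and pericyte genes (20%), which lie between them.

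Markers of other cell types were near 0 in most cells of both groups. The summed median was 0.18 RPKM in the high and 0.72 RPKM in the low cells for 14 epithelial genes, 0.85 and 2.88 RPKM for 15 endocrine genes, 0.68 and 0.48 RPKM for 14 leukocyte genes and 0.62 and 0.43 RPKM for 14 endothelial genes. No cell of either group held 3 or more markers at 10 RPKM of any of these 4 lists or of the erythroid or neural crest lists, but 1 low cell held 3 or more of the 11 mesothelial markers at that level. One gene, Sox9, was lower by 1 or more (−1.02), with 2 high and 6 low cells at 10 RPKM, and Pdx1 was at 0 in all 40 cells. The 4 cells of the series with Tyrobp at 10 RPKM had scores of 4.87 to 6.96, as high as or above the high stromal cells. Cells with Epcam at 10 RPKM, 8 in number, scored 0.79 to 4.22, and the 2 with Emcn 4.33 and 4.78.

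Cell cycle genes did not follow the score in a single direction. Genes of the G2/M phase at 10 RPKM numbered 7.5 of 25 at the median in the high cells and 10.5 in the low cells, and r with the score over 62 cells was 0.01. Of the 25 genes, 1 was higher (Bub1b, a spindle checkpoint kinase gene, 1.31) and 3 lower (Tpx2 −1.87, Ccna2 −1.70 and Ccnb1 −1.04), with a median of −0.50. The 2 sets of cells were opposite: the median was 1.29 in cells 1 to 48 and −1.97 in cells 49 to 96, and 22 of the 25 genes were above 0 in the first set and below 0 in the second. At least 5 of the 25 genes reached 10 RPKM in 9 of 9 high and 5 of 9 low cells of cells 1 to 48, and in 5 of 11 high and 9 of 11 low cells of cells 49 to 96. The part of the cell cycle in the other differences was not tested. Of 22 G1/S genes, Ccnd3, a D-type cyclin (1.16), and Uhrf1 (1.08) were higher and Rrm1, a subunit of ribonucleotide reductase (−1.57), and Ccne2 (−1.01) were lower. Uhrf1 and Ccne2 turned between the sets: Uhrf1 differed by 2.96 in cells 1 to 48 and −0.46 in cells 49 to 96, and Ccne2 by −2.42 and 0.14.

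After Cyr61, the largest toward the high cells were 3110003A17Rik (2.79), Commd6 (2.75), Ndufb10, a subunit of respiratory complex I (2.49), Nr4a1, Mrpl48, a mitochondrial ribosomal protein gene (2.36), Ints10, of the Integrator complex (2.32), and Rnf181 (2.25). Next came Nrbp1 (2.21), Cyb5r3, a cytochrome b5 reductase gene (2.2), and Sdr39u1 (2.15). Commd6 was above 0 in 15 high and 9 low cells, at up to 286.7 and 62.1 RPKM. Ndufb10 was above 0 in 18 and 12 cells, with medians of 63.3 and 4.15 RPKM, yet its median of 78.2 RPKM in the middle cells exceeded that of the high cells. The ranges of high and low cells overlapped for both genes.

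Toward the low cells the largest differences were in Gpn1, a GTPase gene of RNA polymerase assembly (−2.80), Tfpi, which encodes tissue factor pathway inhibitor (−2.60), Qser1 (−2.19), Nde1, a dynein regulator (−2.19), Farsb, a tRNA synthetase subunit (−2.16), and Naa38 (−2.14). They were followed by H2-Ke2 (−2.11), St6galnac3, a sialyltransferase gene (−2.08), Tpp2, a peptidase gene (−2.04), Tssc1 (−2.02), Cpsf4, of mRNA 3′ end processing (−1.98), and Haus8, of the spindle (−1.96). Tfpi was above 0 in all 20 low and 13 high cells, with medians of 37.2 and 0.43 RPKM, and it differed by −2.60 in cells 1 to 48 and −2.59 in cells 49 to 96. In the middle cells it had a median of 62.6 RPKM, close to the low cells. Qser1 was above 0 in all 20 low and 18 high cells, with medians of 16 and 0.62 RPKM.

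Over all 62 cells, the genes most like the score by Pearson r, among those above 0 in at least 31 of them, were Cyr61 (0.62), Nr4a1 (0.49), Tshz3 (0.46), Commd6 (0.44), Vim (0.43), Irf2bp2 (0.42), Mrpl48 (0.41) and Fzd2 (0.41). The first 2 are immediate early genes. Tshz3, a zinc finger factor gene of smooth muscle development, was abundant in both groups (medians of 74.6 and 25.2 RPKM) and differed by 1.54, but by 0.76 without the 4 cells low in Egr1. Vim, the intermediate filament gene of mesenchyme, differed by 0.83, and by 0.36 without those cells. Fzd2, a Wnt receptor gene, differed by 1.60 with medians of 6.74 and 1.98 RPKM, and by 1.73 without them. The points share the library of each cell, so these values are descriptions.

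Some of the named genes have uncertain levels. Of the 50-base windows of the transcript, 42.1% occur in transcripts of other genes for Ccnb1, 35.8% for Ndufs3, 19.5% for Uhrf1, 16.9% for Mrpl48 and 12.3% for H2-Ke2. Mrpl48, Rnf181, Zeb2, Ccnd3, Ccne2 and Ccna2 overlap a gene on the opposite strand in the deposited coordinates, and no source states whether strand was used in counting, so reads of such pairs cannot be told apart. Zeb2 overlaps Gm13476 on the opposite strand and the microRNA gene Mir5129 on its own strand. The higher mean of these overlapping transcripts was 26.7 RPKM over the 40 cells, above the 13.9 RPKM of Zeb2 itself. Pdia4 and Klf9 also each overlap a microRNA gene on their own strand. The mean of the microRNA gene was 67.7 RPKM against 49.9 RPKM for Pdia4, and 9.91 RPKM against 0.82 RPKM for Klf9.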

How the data were processed

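The authors deposited 1 table of values for 29510 transcripts of 22869 gene symbols in 81 cells, with mm9 coordinates. Per the submitters' processing notes, CASAVA 1.8.2 and mm9 were used; for the aligner, counter, annotation and filters, the choice is not given in the sources. The unit is not stated. The deposited values were taken as RPKM, which is an assumption. Low values times transcript length fell near whole multiples of 1 step per cell. Within 0.15 of a step, 79.2% did so in the median cell and 75.7% in the lowest. The step was fitted in each cell to this agreement, and any unit scaled by length would give such steps. The check therefore cannot tell RPKM from another such unit. If the unit is RPKM, that step gives the estimated reads per cell, and in stromal cells 1 read in 1 kb is worth 0.20 to 0.60 RPKM. The libraries carry no molecular identifiers, so reads are not counts of molecules.

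A gene was represented by its transcript of highest mean. Levels are means of log2(RPKM + 1), which understates the change of low genes. Genes above 0 in at least 3 stromal cells were compared, without the 10 score genes. No p-value was computed, since the cells are 1 sample. Cells have no doublet call; the marker sums of other cell types stand in for it. The cells, the 30 gene lists and the comparisons were chosen with earlier results of these data known. Named genes are the 12 of largest difference in each direction (detected above 0 in 10 or more of the 20 cells where it was higher, same sign in both sets of cells); up to 4 per list with a difference of at least 1; the members of the lists of other AP-1 subunits and immediate early factors; and the 8 of highest r with the score. Genes named outside this rule are said to be so. Some genes that the rule names are not reported here. Lengths and transcript windows came from GENCODE vM21 and promoters from RefSeq (GRCm38.p6). Python 3.11.15, numpy 2.4.6, pandas 2.3.3 and matplotlib 3.10.9 were used. The calculation was run on simulated data in which each gene was drawn on its own. Links between genes of the same cell were not simulated, so that run cannot vouch for the comparison of real cells. Alternatives changed the pseudocount, filter, group size, score, depth, scaling, plate set and cells, one at a time.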

Additional observations from a re-analysis of the deposited data

How the results depend on the processing

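The counts of genes past a difference of 1 depended on the scale. The main counts were 516 higher and 413 lower genes, with 11 immediate early genes outside the score among the higher. With log2(RPKM + 0.1) they were 1589, 1121 and 20, and with log2(RPKM + 10) they were 35, 22 and 2. Comparing the upper and lower 31 cells gave 216 higher and 222 lower, and the 15 cells at each end gave 832 higher. Cells 1 to 48 gave 1504 and 979, and cells 49 to 96 gave 945, 1131 and 5 immediate early genes; these sets hold fewer cells. Leaving out each cell in turn gave 484 to 577 higher, 386 to 476 lower and 9 to 13 immediate early genes. Without the 4 cells with Egr1 under 10 RPKM, chosen after seeing the data, the counts were 551, 560 and 8.

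Restricting lists to genes above 0 in at least 31 stromal cells left fewer genes. The median moved to 0.72 for other AP-1 subunits, where only Fosl2 and Jund were left. It moved to 0.87 for immediate early effectors, 0.66 for NF-kB targets, 0.55 for p53 targets and −0.76 for neural crest and glial genes. The epithelial value of −1.02 was that of Sox9 alone and does not describe epithelial genes as a group. The ERK feedback median was −0.17 with the AP-1 and ATF genes as the score. Of 2503 values of 87 named genes over 29 settings, 5 had the opposite sign to a main difference of at least 1. Col6a1 was −0.064 with the other 5 score genes, Tpx2 0.77 and Ccnb1 0.84 in cells 1 to 48, and Uhrf1 −0.46 and Ccne2 0.14 in cells 49 to 96. Sign changes of smaller main differences are not in this count. Among such genes, Tsc22d1 kept its sign in 16 of 29 settings, Myc in 23 of 29 and Jund in 29 of 29. The cause was not tested. Cyr61 lay between 2.24 and 4.24 and Nr4a1 between 1.23 and 4.19 over the alternatives. Leaving out cells with 3 or more markers at 10 RPKM of the epithelial, endocrine, leukocyte, endothelial, erythroid or neural crest list removed 0 cells and gave no value. The mesothelial list was not part of that setting; the 1 low cell with 3 of its markers is among the cells left out in turn. No paired analysis was possible because the cells form 1 group and their numbers name cells, not pairs. With 20 cells a group, no replicate animals and a worth of 1 read up to 0.60 RPKM, a gene at 0 was not detected at this depth.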

Other observations

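General gene groups differed little between the immediate-early-high and immediate-early-low cells. None of 26 ribosomal protein genes and none of 16 imprinted growth genes, such as those of the Igf2 and H19 domain, was higher or lower by 1 log2 unit, with median differences of 0.05 and 0.17. Of 27 oxidative phosphorylation genes, 0 were higher and 1 was lower, the complex I gene Ndufs3 (−1.07), with a list median of 0.08. The list is a selection and leaves out the complex I gene Ndufb10, which was higher in the high cells by 2.49. Of 20 genes of RNA polymerase II elongation and splicing, 1 was higher, the elongation factor gene Supt5h (1.24), with medians of 22.4 RPKM in the high and 5.53 RPKM in the low cells. Of 7 mesothelial genes compared, none differed by 1, and their median was −0.19.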
